A study of Mus musculus with 6 samples.

Results

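The genes of the potassium channels, of the sodium channels and of the chloride channels of the ClC family were followed in the H3K27ac peak lists of mouse quadriceps. Histone 3 lysine 27 acetylation (H3K27ac) marks active promoters and enhancers. The genes were chosen by name: a peak was taken when the gene assigned to it began with Kcn and a further letter, with Scn, a number and a or b, or with Clcn and a number. By this rule 219 of 46988 peaks in the control list and 176 of 40721 peaks in the detrained list belonged to channel genes. These peaks named 71 genes, 67 of them in the control list and 61 in the detrained list, of 15643 genes named in either list. RefSeq holds 119 genes with such names, and the other 48 had no peak assigned in either list.

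The muscle came from wild-type male mice of the C57BL/6 strain (C57BL/6J in the study's methods), 8 weeks old at the start. Control mice were sedentary. Detrained mice had running wheels for 4 weeks and then rested without them for 72 hours before harvest. Each group had 2 H3K27ac libraries, each from the quadriceps of 1 animal, and 1 input library. Below, C2 and C3 stand for the control libraries, and Ex1 and Ex2 for the detrained ones, as in the column headers.

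The resting potential of a muscle fibre is held by a large chloride conductance and by inward rectifier potassium channels. The action potential is carried by a voltage-gated sodium channel and ended by voltage-gated potassium channels (Kv). Inherited faults of Scn4a or Clcn1 cause myotonia, and faults of Scn4a or Kcnj2 cause periodic paralysis. Kv channels are tetramers of pore subunits, some of which (the modifier subunits) work only beside others, and accessory subunits bind to them. The chosen names reach beyond voltage-gated channels. Of the 71 genes, 33 encode pore or modifier subunits of voltage-gated channels, 13 encode accessory subunits, and 25 encode channels or transporters that are not chiefly gated by voltage (inward rectifiers, tandem-pore and small-conductance channels, intracellular ClC exchangers) or a noncoding RNA.

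The H3K27ac libraries held between 20805019 and 22400894 tags, the control input 10812470 and the detrained input 21298438. The authors called 1 peak list per group on both of its libraries. The inputs thus differed in depth between the groups, and what part that had in the lists was not tested. A density is given below as tags per kb of peak per 10000000 tags of the library, estimated for each library from the pooled tags of the group. Pooled tags are those of both libraries of a group, on the same scale of 10000000 tags. Muscle fibre markers carried the mark, since 9 of 10 listed fibre genes had a peak in both lists and their summed density ran from 575 to 717. Markers of other cells were present too. The summed density was 163 to 231 over 5 endothelial genes and 157 to 213 over 5 neuronal genes, with Tubb3 at no peak in either list. The neuronal sum lay at 213 and 211 in the control and at 157 and 173 in the detrained libraries, and that of 4 smooth muscle and pericyte genes at 135 and 158 against 121 and 112. The sum of 4 fibroblast genes lay the other way, at 178 and 181 against 190 and 204. The part of other cells in the channel peaks was not tested, and in whole muscle a change in the share of a cell type cannot be told apart from a change within it.

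The promoters of strongly marked channel genes differ in composition. The 250 bases before the start site of 6 of these genes, on the strand of the gene and 5′ to 3′, are printed to show this. They are RefSeq windows of GRCm38.p6, the build of the peak positions (mm10). Scn4a stands at chr11:106349391-106349640 on the minus strand. On the plus strand stand Clcn1 (chr6:42286435-42286684), Kcnj2 (chr11:111065914-111066163), Kcna7 (chr7:45405710-45405959), Scn4b (chr9:45138374-45138623) and Kcnc1 (chr7:46396218-46396467). Capitals mark matches, on either strand, to 7 of 8 motifs searched. The NFAT core (GGAAA) was left in lower case, as it is found in most windows.
Scn4a: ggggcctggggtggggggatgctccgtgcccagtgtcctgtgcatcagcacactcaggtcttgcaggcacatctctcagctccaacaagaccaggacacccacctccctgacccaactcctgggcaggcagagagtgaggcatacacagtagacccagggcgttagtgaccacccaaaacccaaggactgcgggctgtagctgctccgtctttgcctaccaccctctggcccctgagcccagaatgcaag
Clcn1: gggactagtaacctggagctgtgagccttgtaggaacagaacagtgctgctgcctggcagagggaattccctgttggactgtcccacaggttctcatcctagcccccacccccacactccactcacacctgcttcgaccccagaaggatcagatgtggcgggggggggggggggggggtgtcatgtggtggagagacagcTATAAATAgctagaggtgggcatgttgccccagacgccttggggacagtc
Kcnj2: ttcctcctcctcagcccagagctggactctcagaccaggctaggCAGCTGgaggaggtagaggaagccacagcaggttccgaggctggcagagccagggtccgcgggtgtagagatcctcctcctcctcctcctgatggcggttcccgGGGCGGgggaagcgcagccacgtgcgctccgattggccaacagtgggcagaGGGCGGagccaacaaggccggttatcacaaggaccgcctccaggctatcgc
Kcna7: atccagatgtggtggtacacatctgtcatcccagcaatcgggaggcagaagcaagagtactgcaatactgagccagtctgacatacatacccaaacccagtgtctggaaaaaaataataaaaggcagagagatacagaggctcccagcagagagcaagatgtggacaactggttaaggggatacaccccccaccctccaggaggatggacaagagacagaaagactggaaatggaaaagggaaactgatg
Scn4b: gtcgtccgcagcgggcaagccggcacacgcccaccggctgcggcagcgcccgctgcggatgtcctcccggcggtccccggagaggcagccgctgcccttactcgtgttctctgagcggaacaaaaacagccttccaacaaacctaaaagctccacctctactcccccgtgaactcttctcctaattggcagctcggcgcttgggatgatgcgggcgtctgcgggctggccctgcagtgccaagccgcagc
Kcnc1: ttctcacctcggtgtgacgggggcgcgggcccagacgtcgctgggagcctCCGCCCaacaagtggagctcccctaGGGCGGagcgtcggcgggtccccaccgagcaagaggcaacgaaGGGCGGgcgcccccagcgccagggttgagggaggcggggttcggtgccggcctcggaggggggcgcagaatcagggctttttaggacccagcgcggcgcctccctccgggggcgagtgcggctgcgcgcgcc

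All 6 windows lay inside a peak in both lists, except that of Scn4a, which the detrained peak covered in part. Kcnc1 held 30 CpG dinucleotides in the 250 bases, Scn4b 23 and Kcnj2 14, whereas Scn4a held 4, Clcn1 3 and Kcna7 1. The Scn4a window lay in a weaker peak than the main one of the gene. The other 5 lay under peaks among the 20 densest shared channel peaks, which thus stood over promoters rich in CpG (Kcnc1, Scn4b) and poor in it (Clcn1, Kcna7). The capitals are a TATA box (TATAAA) that overlaps a MEF2 core (TA, 4 bases that are each A or T, then TA) from position -50 of Clcn1, a myogenic E-box (CAGCTG) from position -206 of Kcnj2 and SP1 boxes (GGGCGG), 2 in Kcnj2 and 3 in Kcnc1. The AP-1 site (TGANTCA), the MEF3 site (TCAGGTT) and the ERR motif (AAGGTCA) had no match in these 6 windows.

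The same motifs were counted in all RefSeq windows, which run from 250 bases before to 50 bases after a start site. There were 32851 such windows, of which 120 belonged to 89 channel genes. They included 54 of the 71 genes with a peak. The E-box stood in 22.5% of the channel windows and in 16.3% of all windows, and the SP1 box in 44.2% and 35.7%. The MEF2 core stood in 6.67% of the channel windows against 9.32% of all, the TATA box in 6.67% against 13.6%, the AP-1 site in 3.33% against 7.81%, the MEF3 site in 1.67% against 4.07% and the ERR motif in 3.33% against 4.72%. The NFAT core stood in 56.7% against 61.3%. The 24 windows of genes with a shared peak over a start site held an E-box in 29.2% and a MEF2 core in 16.7%, the latter being 4 windows. The 50 windows of genes with other peaks held them in 20% and 2%, and the 46 windows of genes without a peak in 21.7% and 6.52%. A match is only a run of letters and gives no evidence of binding.

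Most channel peaks lay away from promoters. Introns held 58.4% of the control and 58.5% of the detrained channel peaks, and intergenic sequence 27.9% and 26.7%. By the position of the peak centre, promoters held 8 of the 219 control peaks (3.65%, against 11.2% of all control peaks) and 10 of the 176 detrained peaks (5.68%, against 12.6%). The start site of their own gene was covered by more, 33 control and 34 detrained peaks. The centre lay more than 50 kb from the start site for 71 control peaks (32.4%, against 24.1% of all) and 57 detrained peaks (32.4%, against 23.4%). A peak was assigned to the nearest start site, so a distant peak need not act on the channel gene. Another gene's body was overlapped by 39 control and 36 detrained channel peaks.

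Channel peaks were on the whole weaker than the other peaks of their list. Their median pooled density was 21.9 tags per kb in control mice, against 27.5 over all control peaks, and 24.0 in detrained mice, against 30.1. Over channel peaks the mean log2 value of the H3K27ac libraries exceeded that of the input by 1.60 to 3.86 in the control list (median 2.15) and by 1.58 to 3.91 in the detrained list (median 2.15). The spread among channels was wide, from 11.2 to 102 in the control list and from 9.26 to 85.5 in the detrained list.

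A control and a detrained peak were paired as shared when their overlap took in 50% or more of both. This gave 100 shared channel peaks of 49 genes, of 26432 shared peaks in all. A single one, over the start sites of Clcn2 and Polr2h, was assigned to Polr2h in the control list. Among shared channel peaks, 23 covered a start site of their own gene in both lists. Their median density, as the mean of the 4 libraries on the log scale, was 47.3 tags per kb (15.2 to 93.3), and their median control length was 4694 bp. The other 77 had a median density of 29.1 (12.9 to 71.6) and a median control length of 2090 bp.

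**Figure D1:**
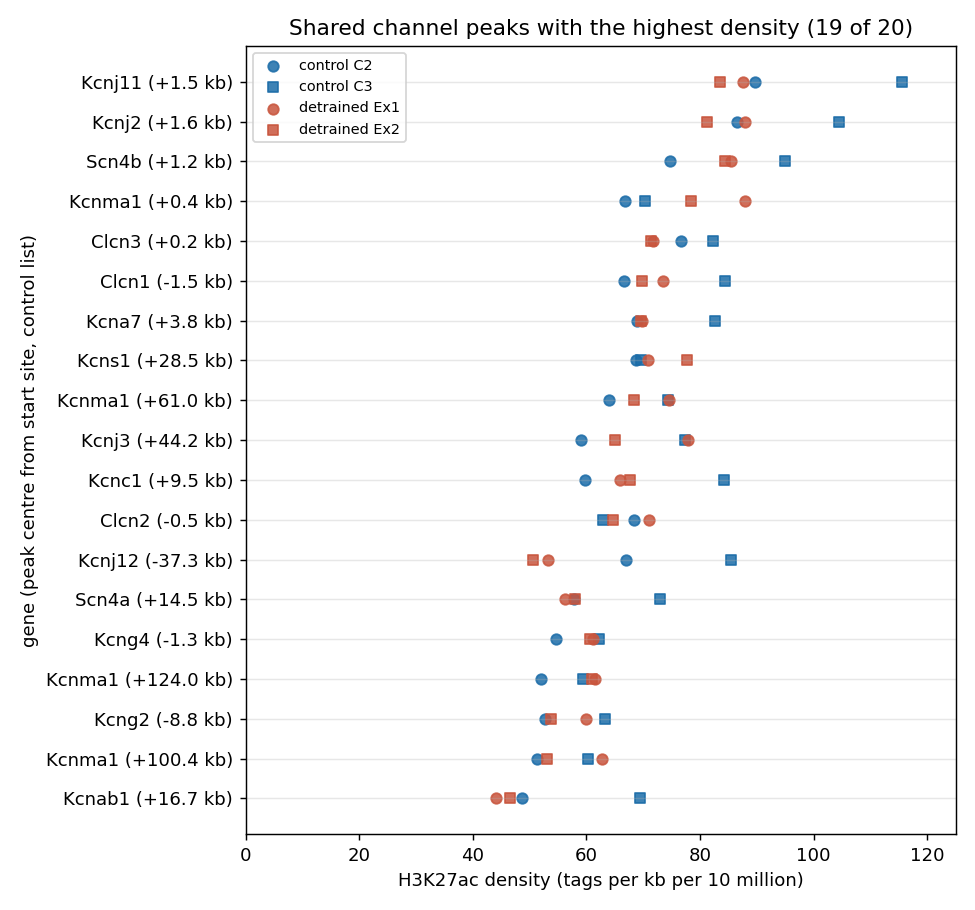
Density of H3K27ac in tags per kb per 10000000 (x axis) in each of the 4 libraries at 19 of the 20 shared channel peaks with the highest mean density (y axis, gene and distance of the control peak's centre from the start site). Circles and squares are single libraries, blue for control and red for detrained; control library C3 lay above C2 at 18 of the 19 peaks, and Kcnj11 and Kcnj2 stood at the top.

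The muscle genes stood near the top of these 100 peaks. By mean density the main peak of Kcnj11 ranked 1, that of Kcnj2 ranked 2, Clcn1 ranked 7, Kcna7 ranked 8 and Scn4a ranked 15. Scn4b ranked 4. The order among neighbours was not resolved, because the libraries of one group differed by as much as the genes did. Kcnj11 had 89.7 in C2 and 116 in C3, and Kcnj2 had 86.5 and 105. The plot of the densest peaks shows these overlaps.

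Sodium channels were marked at the muscle subunits. Scn4a encodes NaV1.4, the pore subunit of skeletal muscle. Its main peak, within the gene at chr11:106326688-106343004 in the control list (centre in intron 13), measured 16316 bp, and its detrained counterpart 16680 bp. It held 1065 pooled tags in control mice, which ranks it at the 99.5 percentile of the control list, and 953 in detrained mice. Its density was 57.8 (C2), 72.9 (C3), 56.2 (Ex1) and 58.1 (Ex2). Only C3 stood apart, and the groups overlapped (log2 difference of detrained minus control -0.19, SD within groups 0.17). Upstream of Scn4a, the control peak at chr11:106348961-106354012 reached over the start site, and a further peak lay at chr11:106354691-106357323. In the peak that reached over the start site the density was 37.7, 50.3, 49.2 and 49.6 in the same order of libraries, and the groups overlapped (log2 difference 0.18, SD 0.21). In the further peak it was 45.0, 58.9, 40.9 and 33.9, so that both detrained libraries lay lower (log2 difference -0.47). The detrained peak was longer (4490 bp against 2632 bp) and held more pooled tags (167 against 136), so the direction turned when tags were counted per peak (log2 difference 0.30). Without C3 the difference per kb was -0.27. The start-site peak, in turn, was called shorter in detrained mice (3401 bp against 5051 bp). Each of these neighbouring pairs overlapped a further peak, so the boundary between them differed between the lists. What part that had in both differences was not tested.

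Beta subunits shape the gating of the sodium channel. Scn4b, with its peak at chr9:45134944-45145621 over the start site, had densities of 74.7 (C2), 95 (C3), 85.5 (Ex1) and 84.4 (Ex2). Both detrained values lay between the control values. Scn2b was weakly marked, with 19.5, 14.5, 12.5 and 15.3. Scn3a, Scn7a and Scn8a, which are known from neurons and glia, had only peaks that were not paired, with 11.8 to 108 pooled tags. Sodium channel genes with no peak included Scn1a, Scn2a, Scn3b, Scn9a, Scn10a and Scn11a, which act in neurons.

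The chloride channel Clcn1 (ClC-1) carries most of the resting conductance of muscle fibres. Its single peak in each list covered the start site, at chr6:42281493-42288810 in control mice and chr6:42281824-42289218 in detrained mice, and overlapped the neighbouring Casp2. Density was 66.7 (C2), 84.5 (C3), 73.5 (Ex1) and 69.8 (Ex2). Both detrained values lay between the control values (log2 difference -0.07, SD 0.17), with 552 and 529 pooled tags. Clcn2, a chloride channel of many tissues, shared its peak with the start of Polr2h, an RNA polymerase subunit, and the mark there cannot be divided between the genes. Densities were 68.4, 63.0, 71.0 and 64.6. Clcn3, an endosomal exchanger, had 76.7 and 82.3 in control and 71.7 and 71.5 in detrained mice at its upstream start site. The detrained libraries were lower per kb (log2 difference -0.15) and also per peak (-0.25), with a difference per kb of -0.10 without C3. Not all Clcn3 peaks were lower per kb. Over a second start site a control peak of 4214 bp had 59.5 and 63.0 and the unpaired detrained peak of 2869 bp beneath it 67.7 and 72.0, with fewer pooled tags (200 against 258). A shared intronic peak had 38.2, 54.4, 51.5 and 55.8, with overlapping groups (log2 difference 0.23, and -0.04 per peak). Its difference per kb was -0.02 without C2 and 0.49 without C3. Clcn5 and Clcn7, of endosomes and lysosomes, had overlapping groups, with densities from 28.8 to 42.5 for Clcn5 and from 42.4 to 58.5 for Clcn7. Clcn4 and Clcn6 had no peak.

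**Figure D2:**
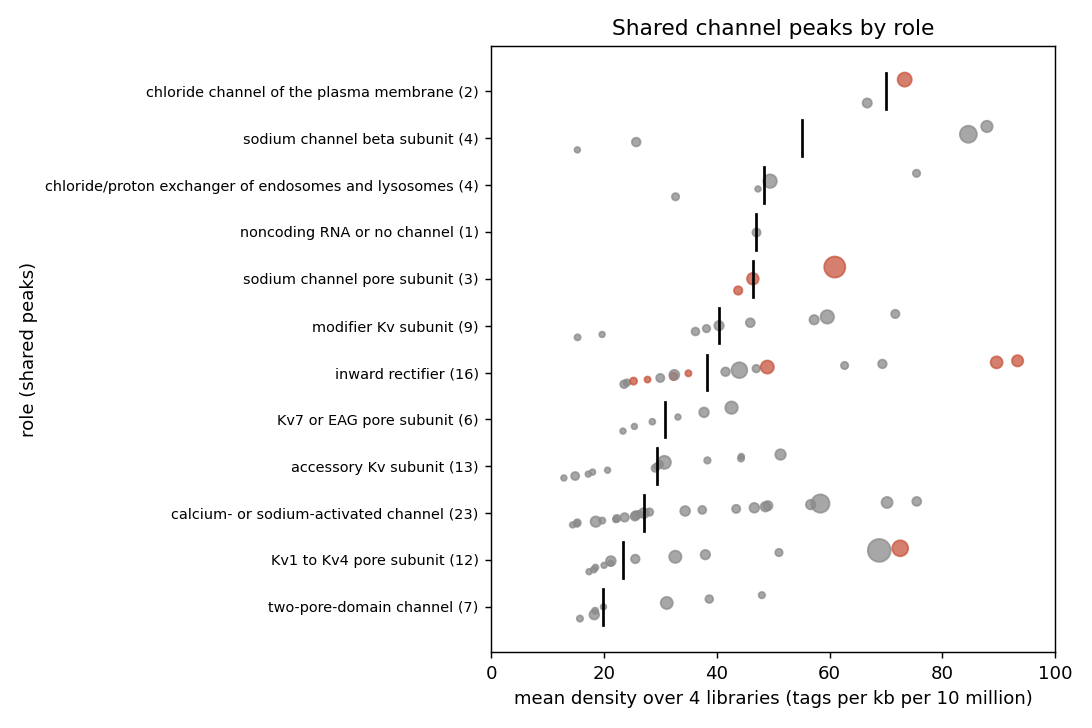
Mean density over the 4 libraries (x axis, tags per kb per 10000000) of the 100 shared channel peaks by role (y axis, number of shared peaks in parentheses). Each circle is a peak with its area growing with the control length up to a limit, the bars are medians, and red marks peaks of Scn4a, Clcn1, Kcnj2, Kcnj11 and Kcna7; the sodium channel beta subunits and the inward rectifiers held the densest peaks, and the tandem-pore channels (two-pore-domain channel) had the lowest median, 19.9.

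Inward rectifiers pass potassium best near the resting potential. Kcnj2 encodes Kir2.1. The peak over its start site, chr11:111065125-111070409, had 86.5 (C2), 105 (C3), 87.9 (Ex1) and 81.2 (Ex2), and the groups overlapped (log2 difference -0.17, SD 0.15). Kcnj2 had 11 peaks in the control and 7 in the detrained list, out to 396990 bp past the start site. A peak at chr11:111084739-111091063, 21737 bp past the start, was the strongest of the others, with 45.4, 60.7, 44.1 and 47.2. A peak 149043 bp past the start had 29.1, 36.7, 41.5 and 33.5. None of the 4 shared Kcnj2 peaks had separate groups.

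Kcnj11 encodes Kir6.2, the pore of the ATP-sensitive potassium channel (KATP). The peak over the gene, chr7:46096362-46101056, had 89.7 (C2), 116 (C3), 87.6 (Ex1) and 83.5 (Ex2). Both detrained libraries lay just under the lower control library (log2 difference -0.25, SD 0.19). The difference was -0.43 without C2 and -0.07 without C3. The detrained peak was 5871 bp long against 4694 bp, and the tags per peak differed the other way (0.07). Further peaks assigned to Kcnj11 lay within the neighbours Nomo1 and Abcc8. The KATP pore of vessels, Kcnj8, had 3 peaks in the control list only. The strongest of these, at chr6:142565817-142571081, had 140 pooled tags, with densities of 23.4 in C2 and 30.1 in C3. It was the strongest channel peak found in 1 list alone. The regulatory subunits of KATP, Abcc8 and Abcc9, were also marked. The densest shared Abcc9 peak, on the same chromosome at chr6:142665909-142670964, had 82.0, 93.7, 64.7 and 64.8, so that the detrained libraries were lower per kb (log2 difference -0.44) and also per peak. The summed density of the smooth muscle and pericyte markers was lower in both detrained libraries too, as given above. That sum was not limited to shared peaks. Of the 3 of these markers with a shared peak, 1 was lower there (Pdgfrb, log2 difference -0.10), while Acta2 (-0.0015) and Rgs5 (0.08) had overlapping groups and Myh11 had no shared peak. The part of these cells in the Kcnj8 and Abcc9 peaks was not tested.

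Kcnj12 (Kir2.2) had 12 control and 7 detrained peaks. Its peak at chr11:60984253-60986216, with its centre at -37330 bp from the start site, had 66.9 (C2), 85.5 (C3), 53.2 (Ex1) and 50.6 (Ex2), a log2 difference of -0.54 (SD 0.18). The pooled tags hardly differed (149 and 154), and the detrained peak was 2966 bp long against 1963 bp. The long peak over the start site, chr11:61058905-61068058, had 41.5, 40.6, 45.6 and 48.7 (log2 difference 0.20, SD 0.05). It was not separated in the same direction per peak (log2 difference 0.05). Kcnj3, a G protein-gated rectifier best known from heart and neurons, had an intronic peak 44175 bp past its start with 59.0, 77.4, 77.9 and 65.0, which ranked 11. Kcnj1 and Kcnj15 had a peak in the control list only, and Kcnj4, Kcnj5, Kcnj9, Kcnj10, Kcnj13, Kcnj14 and Kcnj16 had none.

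Among the Kv1 to Kv4 pore subunits, Kcna7 and Kcnc1 held the densest shared peaks. Kcna7 encodes Kv1.7, which is expressed in skeletal muscle. Its single peak in each list, chr7:45405108-45414392 in control mice, covered its start site and that of Ntf5. Density was 68.8 (C2), 82.7 (C3), 69.7 (Ex1) and 69.7 (Ex2), with 702 pooled tags in control and 629 in detrained mice. The groups overlapped (log2 difference -0.11, SD 0.13). Kcnc1 encodes Kv3.1, a fast delayed rectifier. Its peak at chr7:46395602-46416324 was the longest channel peak of the control list, 20722 bp, and in detrained mice it was called together with a neighbouring peak as 26186 bp. It had 59.8, 84.2, 65.9 and 67.6. The nearest start site of another gene was that of Myod1, the myogenic regulator, 19128 bp away.

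The other Kv1 to Kv4 genes were weaker. Kcnc4 (Kv3.4), which has been described in skeletal muscle, had 3 shared peaks, all with negative log2 differences. The peak in an intron at chr3:107440392-107443959 had 22.5 and 26.9 in control and 18.6 and 17.9 in detrained mice (log2 difference -0.43, SD 0.13), and was lower per peak as well (-0.85). A second intronic peak at chr3:107445521-107448223 had 25.8, 30.7, 21.3 and 25.2 (log2 difference -0.28), again lower per peak (-0.59). The second difference was -0.16 both without C3 and without Ex1. Over the Kcnc4 start site a control peak of 7229 bp with 216.5 pooled tags corresponded to 2 detrained peaks of 6065 bp in all with 144 pooled tags, or 30.0 against 23.8 per kb. Kcna5 (Kv1.5) had 31.4, 34.9, 36.4 and 28.4 at its promoter. A small peak 54813 bp past its start had 17.7 and 16.4 in control and 21.9 and 25.1 in detrained mice, higher per kb (log2 difference 0.46) and per peak (1.03), on 10.6 and 22 pooled tags. Of the 12 genes of this class with a peak, only Kcna5, Kcna7 and Kcnc1 had a shared one over the start site. Kcna1, Kcna6, Kcnb2, Kcnc2 and Kcnd2, which are chiefly neuronal or cardiac, had no peak.

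Of the modifier subunits, Kcng4 was the strongest at a start site. Its peak at chr8:119633599-119640280 had 54.6 (C2), 62.1 (C3), 61.2 (Ex1) and 60.7 (Ex2), with both detrained values between the control values. Kcnv2 had 4 shared peaks, 3 of them higher in both detrained libraries. The peak 13908 bp past its start had 35.5, 34.2, 41.8 and 52.5 (log2 difference 0.43, SD 0.17), and the peak at -10054 bp had 38.8, 45.7, 52.1 and 48.1 (0.25). Both were higher per peak too (0.29 and 0.50). Per kb the first was 0.26 without Ex2 and the second 0.13 without C2. A dense peak assigned to Kcns1, with 68.8, 69.6, 70.9 and 77.7, lay in an intron of Stk4, 28510 bp from the Kcns1 start site. Kcnf1 had a control peak over the gene with 138 pooled tags over 4170 bp, and 2 detrained peaks beneath it with 49.8 over 2458 bp, or 33.0 against 20.3 per kb. In the Kv7 family, Kcnq5 had intronic peaks that differed in direction. The peak 247726 bp past its start had 29.0, 27.6, 23.8 and 21.7 (log2 difference -0.32, SD 0.08), lower per peak as well (-0.34), and the peak 212316 bp past its start had 29.7, 36.7, 42.4 and 43.8 (0.38), which turned to -0.47 per peak and was 0.23 per kb without C2.

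**Figure D3:**
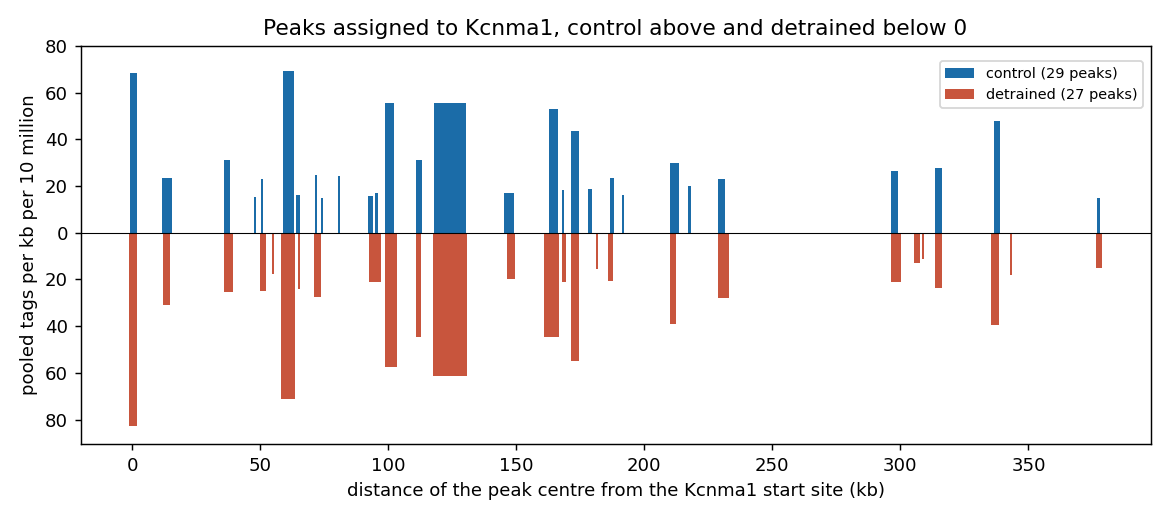
Peaks assigned to Kcnma1 in the control list (29, upward) and the detrained list (27, downward). The x axis is the distance of the peak centre from the start site in kb, bar width follows peak length, and bar height is the pooled density of both libraries in tags per kb per 10000000; the peak at the start and that near 61 kb were the densest in both lists.

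Kcnma1, the pore of the large-conductance channel (BK) that both calcium and voltage open, had more peaks than any other channel gene. There were 29 in the control list over 70.7 kb and 27 in the detrained list over 85 kb, out to 377592 bp past its start, as the map of Kcnma1 peaks shows. Over all of these its density was 36.1 (C2), 40.3 (C3), 41.3 (Ex1) and 38.4 (Ex2), so that the libraries overlapped. At the start site, chr14:24002317-24005235, where the noncoding 4930519K11Rik also starts, it was 66.7 and 70.3 in control and 88.0 and 78.5 in detrained mice. Both detrained libraries were higher (log2 difference 0.28, SD 0.09), per peak as well (0.31). The longest Kcnma1 peak, chr14:23874034-23886351 in the first intron, had 51.9, 59.5, 61.6 and 61.0 (0.14), also higher per peak (0.21), but its difference per kb was 0.04 without C2 and 0.24 without C3. Of 18 shared Kcnma1 peaks, 8 were higher and 5 lower in both detrained libraries, and only the 2 just named were so both per kb and per peak. The widest difference among all shared channel peaks was at chr14:23938632-23940079, with 18.4 and 13.8 in control and 25.5 and 23.1 in detrained mice (log2 difference 0.61, SD 0.22). There the control peak measured 1447 bp and the detrained peak 793 bp, and per peak the direction turned (-0.26). Without C3 the difference per kb was 0.40. The next difference upward, at chr14:23891108-23893428, had 29.5, 33.4, 48.5 and 41.1 (0.51, but 0.14 per peak), and that at chr14:23988799-23992449 had 23.8, 23.5, 28.6 and 33.4 (0.39), which turned to -0.15 per peak.

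Small-conductance calcium-activated channels (SK) were weaker. Kcnn2 (SK2) had the widest difference downward among shared channel peaks, at its promoter on chromosome 18, with 30.3 (C2), 33.6 (C3), 21.3 (Ex1) and 21.7 (Ex2) (log2 difference -0.57, SD 0.08). The pooled tags were 53.4 and 53.5, and the lengths were 1679 bp and 2500 bp, so that per peak the log2 difference was 0.003. Tags over a common interval were not counted. Kcnn1 (SK1) had 49.3, 47.6, 43.2 and 46.6 in the peak over its start site, lower per kb (-0.11, or -0.06 without Ex1) and per peak (-0.37). Kcnn4, of blood cells, had 1 control peak with 5.66 pooled tags.

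Tandem-pore channels, which give a background potassium current, had the lowest median density of any role, 19.9 over 7 shared peaks. Kcnk6 had 36.1, 35.9, 45.1 and 38.2 at its promoter (log2 difference 0.21), turning to -0.20 per peak. Per kb it was 0.09 without Ex1 and 0.33 without Ex2. The peak assigned to Kcnk7 had 37.2, 37.9, 26.3 and 25.3 (-0.54), but it lay in Ehbp1l1, and a second detrained peak with 43.1 and 40.1 overlapped the same control peak. Kcnk13 had 21.8, 21.8, 15.2 and 15.8 (-0.49), turning to 0.44 per peak. Kcnk2 (TREK-1) had 10 control and 4 detrained peaks, of which 2 were shared, all of them weak, with 5.88 to 46.6 pooled tags.

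Accessory subunits bind to Kv pores. The densest of their shared peaks was an intronic one of Kcnab1, chr3:64963822-64967914, with 48.6, 69.4, 44.0 and 46.5 (log2 difference -0.36, SD 0.26), which was lower per peak as well (-0.41). Per kb it was -0.62 without C2 and -0.10 without C3. The promoter peak of Kcnab1 had 27 in each control library and 29.0 and 37.6 in detrained mice (0.29), turning to -0.16 per peak, and was 0.48 per kb without Ex1 and 0.10 without Ex2. Kcne4 had 30.8, 30.2, 30.5 and 31.3 over its gene, and the 4 libraries were nearly equal. A peak at -71694 bp had 35.4, 34.6, 45.5 and 38.6 (0.26, or 0.14 without Ex1), higher per peak too (0.29).

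The groups were then compared over all shared channel peaks. A peak was called separated when Ex1 and Ex2 both exceeded C2 and C3 or both fell short of them, and the peaks named higher or lower above are separated in this sense. No test between the groups was made, because the tables were normalized separately and hold no tag counts per library. Of the 100 shared channel peaks, 48 were separated, against a background of 48.5% of all shared peaks. Both detrained libraries were higher at 24 (background 21.3%) and lower at 24 (background 27.2%). The even split depended on the scaling. With libraries scaled to the tags in all listed peaks, 31 were higher and 22 lower, 53 in all against 49.9% of all shared peaks. In tags per peak 37 were higher and 29 lower. The shares of all shared peaks that were higher or lower were not counted for these settings. Group means at least 1.5-fold apart were found at 1 separated peak, the Kcnma1 peak with the widest difference (background 3.16%). The median log2 difference was 0.02 over channel peaks and -0.03 over all shared peaks, and the mean density of the channel peaks on the log2 scale was 5.08 ± 0.10 in control and 5.08 ± 0.02 in detrained mice (SD, n = 2). Per kb, the shares of channel peaks separated lie near the background. In tags per peak, 66 of the 100 were separated, against 53.4% of all shared peaks, and 18 were also at least 1.5-fold apart, against 10.6%.

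The 2 control libraries lay about as far apart as the group means did. These are unlike measures, since a group mean averages 2 libraries and each group has its own peak intervals. The median absolute log2 difference was 0.21 between C2 and C3, 0.12 between Ex1 and Ex2 and 0.19 between the group means. C3 exceeded C2 at 72 of the 100 channel peaks, against 61.3% of all shared peaks, and the median log2 difference of C3 over C2 was 0.14 over the 100 channel peaks, 0.26 at the 20 densest of them and 0.07 over all shared peaks. Without C2 the count of separated peaks was 82 (33 higher, 49 lower), and without C3 it was 75 (47 higher, 28 lower), against 76.0% and 75.7% of all shared peaks, since 1 control library is more easily passed. At 29 of the 48 separated channel peaks the log2 difference moved by more than 1.5 times when 1 of the 4 libraries was left out.

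Peak length moved with the density. Of the 24 higher peaks 17 were called shorter in detrained mice, and of the 24 lower peaks 15 were called longer. Over all shared peaks this held for 4530 of 5635 higher peaks and 5752 of 7183 lower peaks. Of the 48 separated peaks, 17 were separated in the same direction both per kb and per peak, 8 higher and 9 lower (background 16.0% of all shared peaks for either direction). The higher ones belonged to Kcnma1, Kcnv2 and Kcne4 with 2 each, and to Kcna5 and Kcnk2 with 1 each. The lower ones belonged to Kcnc4 with 2, and to Clcn3, Kcnab1, Kcnip3, Kcnk2, Kcnk7, Kcnn1 and Kcnq5 with 1 each. For Kcnk7, a second detrained peak overlapped the same control peak and was left out of the pair. Neither set held Scn4a, Clcn1, Kcnj2, Kcnj11 or Kcna7.

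**Figure D4:**
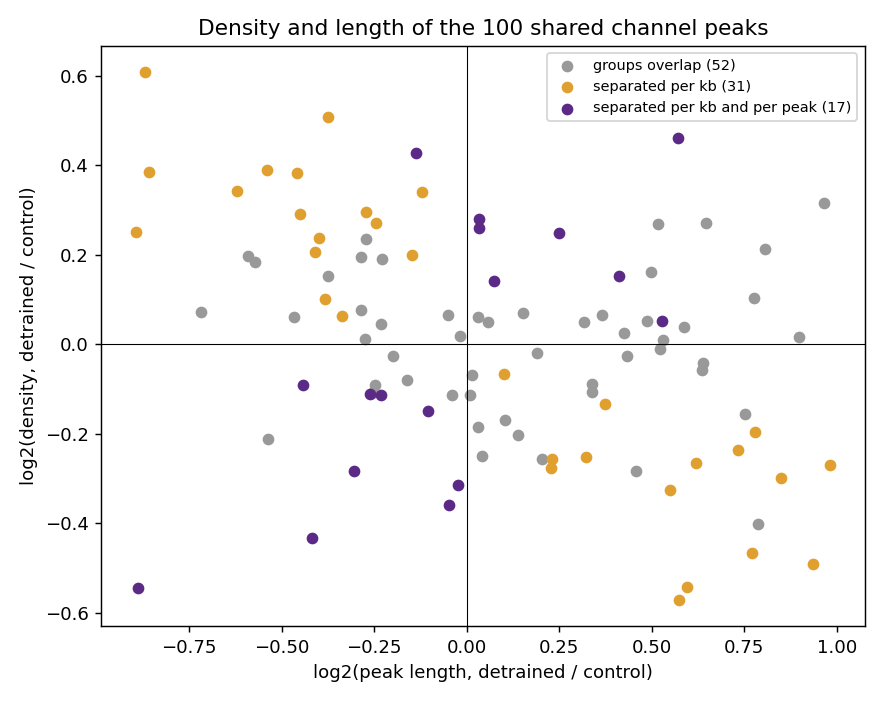
Log2 difference in density (y axis, detrained over control, group means) against the log2 ratio of peak lengths (x axis) at the 100 shared channel peaks. Each point is a peak: 52 with overlapping groups (grey), 31 separated only per kb (orange) and 17 separated per kb and per peak (purple); orange points fill the upper left and the lower right, where a shorter peak was denser and a longer peak less dense.

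Channel peaks found in 1 list alone were mostly weak. Of the 219 control channel peaks 133 shared 1 bp or more with a detrained peak (60.7%, exact 95% interval 53.9 to 67.2), and 86 did not, against a background of 27.9% of all control peaks without an overlap. Of the 176 detrained channel peaks 132 overlapped a control peak (75%, exact 95% interval 67.9 to 81.2), and 44 did not, against a background of 18.0%. When the control list was cut to its densest peaks, as many as the detrained list holds, the shares overlapped were 72.0% and 71.0%. The shares over all peaks were not counted for this setting. The intervals cover counting error only. Those found in the control list alone had a median of 15.1 pooled tags, against 64.3 for the overlapped ones, and 69 of the 86 held under 30. In the detrained list the medians were 19.3 and 61.4, and 35 of the 44 held under 30.

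**Figure D5:**
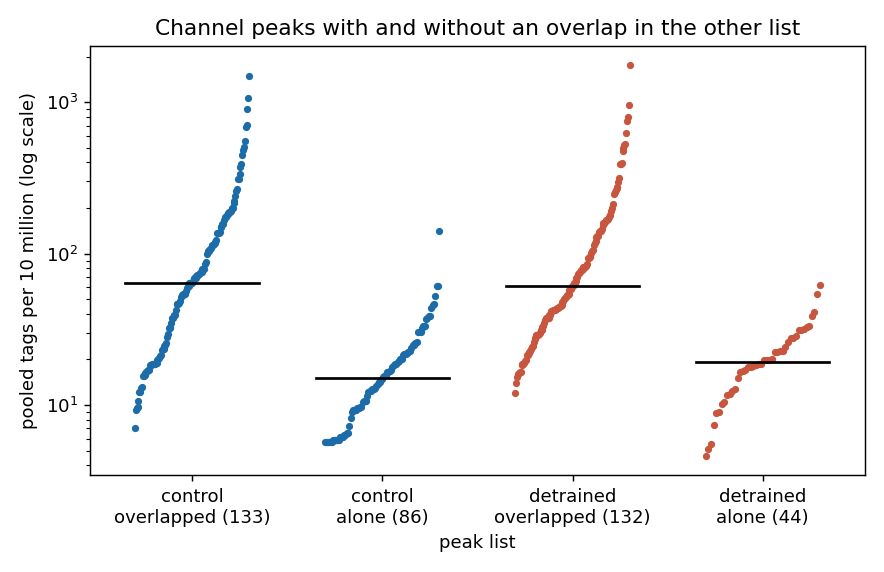
Pooled tags per 10000000 (y axis, log scale) of each channel peak in the control list (blue) and the detrained list (red), split by whether it overlapped a peak of the other list or stood alone (number of peaks in parentheses). Bars are medians; those alone had medians of 15.1 and 19.3 and those overlapped 64.3 and 61.4.

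The strongest peaks in the control list alone belonged to Kcnj8 (140 pooled tags), Kcnc4 (61.5, at chr3:107411301-107413726) and Kcnj2 (61.1, 170484 bp past the start). Those in the detrained list alone belonged to Kcnj11 (61.6, within Abcc8), Kcne4 (53.8, at -76111 bp) and Kcnq5 (41.2, in its first intron). By gene, 10 channel genes were named only in the control list, Kcnd1, Kcnh2, Kcnj1, Kcnj8, Kcnj15, Kcnk1, Kcnmb2, Kcnn4, Kcnq1 and Scn8a. Another 4 were named only in the detrained list, Kcna3, Kcnab2 and Kcnmb1 among them. Apart from Kcnj8, these 14 genes had no peak over 33.5 pooled tags. The level of a gene in the list that did not name it is not known. The control list held more peaks in all (46988 against 40721 in the detrained list). How many of all genes were named only in the control list, or only in the detrained list, was not counted. In all, 49 of the 71 genes had a shared peak. The other 22 were these 14 and 8 more, Kcna4, Kcna10, Kcnf1, Kcnh5, Kcnk16, Scn3a and Scn7a among them.

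Other genes of membrane excitability were described beside the channels from a list of 24. All 24 had a peak in the control list and 23 in the detrained list, Trpm4 being without one there. At the densest shared peak of each, available for 22, both detrained libraries were higher in 8 and lower in 4, against 21.3% higher and 27.2% lower of all shared peaks. Counted also per peak, 3 were higher (Sgk1 and Nalcn among them) and 2 lower (Abcc9 and Atp1b2), against 16.0% of all shared peaks in either direction. Taking the densest peak of each gene makes these counts no like-for-like match of that background. Atp1b2, a beta subunit of the sodium pump, had 39.2, 44.0, 29.9 and 27.7 (log2 difference -0.53). Fxyd1, the phospholemman that regulates the pump, had 82.2, 90.5, 68.6 and 66.6 (-0.35) on a peak called longer. The calcium channel genes Cacna1s, which serves as the voltage sensor of contraction, and Cacnb1 had overlapping groups, with 71.7, 87.3, 80.8 and 78.4 for Cacna1s. Mbnl1, a splicing factor that acts on Clcn1 transcripts, had 101, 121, 108 and 102 and overlapped too, while Celf1, its counterpart, had 66.5, 66.8, 93.8 and 76.1 (0.34), not separated per peak.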

How the data were processed

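The deposited tables hold 1 H3K27ac peak list per group. Reads were mapped to mm10 (Bowtie 1.2 per the submitters' processing notes), and the authors called peaks with HOMER on both libraries of a group against its input. The deposited signal is the pooled tag coverage of a peak per 10000000 tags. For single libraries the deposited unit is log2, as regularized logarithms that are shrunken for weak peaks. The authors' log2 fold change, p-value and adjusted p-value of each peak against input were not used. The labels do not tie C2 and C3 to numbered control samples.

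Pooled tags were shared between the libraries of a group in proportion to total tags and 2 to the power of the log2 value, and density was log2 of (tags + 0.5) per kb per 10000000. Peak length was end minus start. Start sites and gene bodies came from RefSeq (GRCm38.p6). Separation was chosen as a description. The named genes were Scn4a, Clcn1, Kcnj2, Kcnj11 and Kcna7, the genes with the densest shared promoter peaks (only 6 qualified), the 5 separated peaks farthest up and the 5 farthest down, the 5 genes with most peaks and the 3 strongest peaks of each list alone; others were named after their values were seen. Members and lists were chosen with earlier results of these data known. Computation was in Python 3.11.15 (pandas 2.3.3, numpy 2.4.6), intervals in scipy 1.17.1 and plots in matplotlib 3.10.9. Alternatives are given in the closing section. Values of some genes are not reported here.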

Additional observations from a re-analysis of the deposited data

How the results depend on the processing

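The count of 48 separated channel peaks ranged from 67 to 82 when 1 library was left out (72.2% to 76.0% of all shared peaks), and was 15 with at least 80% of each peak covered (44.1% of 34 shared, against 40.2% of all). In alternatives chosen after seeing the data it was 18 where the longer of the pair was under 25% longer (41.9% of 43, against 41.0% of all) and 17 with the same direction per kb and per peak (16.0% of all). The single peak at least 1.5-fold apart became 2 to 6 without 1 library (4.46% to 5.69% of all shared peaks), 18 in tags per peak (10.6% of all) and 5 of 115 with any one-to-one overlap (4.68% of all). The count was 0 with at least 80% covered (0.91% of all), with at least 30 pooled tags in both groups (2.68% of all) or with such like lengths (1.23% of all). The median log2 difference of 0.02 ranged from -0.075 (without C2) to 0.053 (without C3) when 1 library was left out and was 0.067 with libraries scaled to the tags in listed peaks (0.024 over all shared peaks). Of control channel peaks 45.2% were overlapped with at least 50% of each covered. The share was 84.7% among peaks of at least 30 pooled tags and 72.0% among equal numbers of top peaks. Of detrained channel peaks the shares were 56.8%, 92.0% and 71.0%, so that the gap between the lists was not seen with equal numbers. The shares over all peaks were not counted for these settings. In tags per peak 11 of 20 named peaks changed sign, to -0.19 (Clcn2), 0.59 (Kcna5 at its promoter), 0.071 (Kcnj11), -0.20 (Kcnk6), -0.16 (Kcnab1), 0.0031 (Kcnn2), -0.26 and -0.15 (Kcnma1 at 64850 and 13581 bp), 0.052 (Kcnj12), 0.44 (Kcnk13) and 0.30 (Scn4a). In tags per peak the lengths of the peaks are not divided out. No paired analysis was possible because no test was made and the library columns share fewer than 2 replicate numbers. With 2 libraries per group, shrunken values for weak peaks and unequal inputs, small differences cannot be resolved.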

Other observations

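All 4 neuronal markers with a shared peak were separated per kb, 1 higher and 3 lower in both detrained libraries. Taken at 1 chosen peak per gene, these markers are no like-for-like match of the channel peaks. At the densest shared peak of each, Syt1 had 54.5 and 45.0 tags per kb (per 10000000 tags) in control and 25.6 and 29.1 in detrained mice, Rbfox3 had 41.3 and 44.9 against 29.9 and 35.7, Snap25 had 94.5 and 98.4 against 79.4 and 84.2, and Map2 had 18.2 and 14.8 against 21.8 and 21.5. The fibre marker Actn3 had 77.6 and 99.1 against 61.7 and 59.4, whereas Ckm had 81.8 and 106 against 107 and 103 with overlapping groups. The Actn3 and Snap25 peaks were called longer in detrained mice (8006 bp against 5638 bp, and 2996 bp against 2424 bp) and were not separated in the same direction per peak, whereas Syt1, Rbfox3 and Map2 were.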
